A study of Mus musculus with 21 samples.

Results

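The kept promoter peaks of c-MYC are 3606 regions of the genome of mouse embryonic fibroblasts (MEFs) in which c-MYC was still called after the Hsf1 gene had been deleted. They were chosen by rule from 2 deposited peak lists, 1 for cells with intact Hsf1 (WT) and 1 for cells that had lost it (CKO). A peak of the CKO list was a member when it overlapped a WT peak by at least 1 bp and lay within 1000 bp of the start of a protein-coding gene. The 3606 members were 56.5% of the 6386 CKO peaks (95% Wilson interval 55.2% to 57.7%), and the WT list held 220037 peaks. WT peaks covered 510 Mb and CKO peaks 11.5 Mb. A WT peak overlapped 93.3% of all CKO peaks and 96.8% of those near a coding start, so the overlap left few of them out. Presence in CKO, overlap with WT and position were what the members were selected on, so their heights in both lists are given as a description with no test. Their sequence motifs and the expression of their genes were not used by the rule.

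c-MYC is a transcription factor that pairs with MAX and binds E-boxes, of which CACGTG is the canonical form, mostly at promoters that are already active. It is best known for raising the output of genes for ribosomes, nucleotides and cell growth. HSF1 is the factor that switches on chaperone genes when proteins misfold, by binding repeats of GAA and TTC called heat-shock elements, and it also acts in unstressed, dividing cells. GCN5, encoded by Kat2a, is the acetyltransferase of the SAGA and ATAC complexes, which c-MYC can bring to promoters.

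All samples came from immortalized MEFs. For CUT&RUN, in which an antibody guides a nuclease to cut DNA around the bound protein, the cells were treated for 7 days with ethanol (Hsf1 WT, 2 samples) or with 4-hydroxytamoxifen to delete Hsf1 (Hsf1 CKO, 2 samples), and IgG was applied to a mixture of both (1 sample). RNA was sequenced from a line with a stable LacZ transgene and a line with stable GCN5 carrying a V5 tag, each transfected for 2 days with 10 nM of a control siRNA (siControl) or of siRNA against Hsf1 (siHsf1), with 3 libraries in each of the 4 groups. The c-MYC knockdown samples of the series were not analysed here. The labels do not say whether each line is 1 clone, whether the 2 samples of a CUT&RUN genotype were pooled for peak calling, or whether the RNA triplicates were separate cultures, so p-values measure only the spread between these libraries. No RNA from the CKO cells was analysed, and expression below therefore refers to knockdown, not deletion, of Hsf1.

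The promoter sequences of 8 members show the sites discussed below, as the 250 bases before the RefSeq start of the gene (GRCm38.p6), 5′ to 3′ on the strand of the gene. Capitals mark CACGTG in the first 7 and a heat-shock element in the last. Every printed base lay inside the member peak. Distances of the printed sites are from the RefSeq start. It lay 38 bp (Psme3), 143 bp (Mnt) and 249 bp (Nme1) from the gene start used for the peaks, and was the same for the other printed genes. Trmt10a (chr3:138143267-138143516, + strand) and Psme3 (chr11:101315963-101316212, + strand) had the 2 highest c-MYC peaks of the list, tied in height, and CACGTG stood 44 to 39 bp before the start of Psme3 and nowhere in the Trmt10a stretch.
Trmt10a: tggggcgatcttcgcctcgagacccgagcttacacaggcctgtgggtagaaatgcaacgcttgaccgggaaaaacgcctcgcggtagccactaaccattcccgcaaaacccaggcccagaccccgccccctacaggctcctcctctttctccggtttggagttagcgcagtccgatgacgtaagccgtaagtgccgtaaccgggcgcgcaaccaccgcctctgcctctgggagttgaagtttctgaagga
Psme3: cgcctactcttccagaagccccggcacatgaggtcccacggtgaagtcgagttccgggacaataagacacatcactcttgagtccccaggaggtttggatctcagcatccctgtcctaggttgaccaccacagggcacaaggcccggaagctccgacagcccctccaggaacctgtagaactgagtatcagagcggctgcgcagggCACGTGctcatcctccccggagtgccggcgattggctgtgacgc
Ran (chr5:129019906-129020155, + strand) and Mnt (chr11:74830674-74830923, + strand) carried CACGTG at 118 to 113 bp and at 123 to 118 bp before the start. The Ran stretch also held 5 copies of the related CACGCG over both strands, which on the printed strand read CACGCG or CGCGTG.
Ran: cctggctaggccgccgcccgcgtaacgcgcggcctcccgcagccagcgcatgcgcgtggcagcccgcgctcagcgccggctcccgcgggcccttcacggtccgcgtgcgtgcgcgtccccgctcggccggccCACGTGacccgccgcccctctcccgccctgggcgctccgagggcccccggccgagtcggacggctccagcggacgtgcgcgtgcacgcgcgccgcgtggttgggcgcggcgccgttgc
Mnt: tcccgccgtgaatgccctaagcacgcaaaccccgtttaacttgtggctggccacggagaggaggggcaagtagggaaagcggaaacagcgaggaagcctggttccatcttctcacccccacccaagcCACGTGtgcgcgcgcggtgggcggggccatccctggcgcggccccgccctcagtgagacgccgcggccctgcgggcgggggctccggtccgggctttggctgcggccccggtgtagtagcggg
Nme1 (chr11:93968273-93968522, - strand) had its match 18 to 13 bp before the start, Iars (chr13:49681880-49682129, + strand) 69 to 64 bp before it, and Ncl (chr1:86359456-86359705, - strand) had none.
Nme1: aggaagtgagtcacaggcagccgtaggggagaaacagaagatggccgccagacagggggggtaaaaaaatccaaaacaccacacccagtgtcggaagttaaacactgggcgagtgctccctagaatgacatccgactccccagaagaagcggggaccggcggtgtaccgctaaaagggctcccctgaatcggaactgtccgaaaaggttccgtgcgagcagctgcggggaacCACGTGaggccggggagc
Iars: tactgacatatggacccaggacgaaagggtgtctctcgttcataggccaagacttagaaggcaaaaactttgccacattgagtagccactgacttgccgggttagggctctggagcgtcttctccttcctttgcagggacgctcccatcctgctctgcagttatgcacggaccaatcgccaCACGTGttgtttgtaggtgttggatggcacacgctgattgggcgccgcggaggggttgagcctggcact
Ncl: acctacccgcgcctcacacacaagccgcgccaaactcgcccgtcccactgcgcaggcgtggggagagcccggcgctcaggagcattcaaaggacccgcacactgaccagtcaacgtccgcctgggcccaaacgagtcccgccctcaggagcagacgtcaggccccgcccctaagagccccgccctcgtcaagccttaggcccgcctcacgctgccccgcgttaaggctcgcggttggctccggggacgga
Hspe1 (chr1:55087898-55088147, + strand), the gene of the mitochondrial chaperonin HSP10, held no CACGTG but 2 overlapping triple heat-shock elements from 89 to 72 bp before the start.
Hspe1: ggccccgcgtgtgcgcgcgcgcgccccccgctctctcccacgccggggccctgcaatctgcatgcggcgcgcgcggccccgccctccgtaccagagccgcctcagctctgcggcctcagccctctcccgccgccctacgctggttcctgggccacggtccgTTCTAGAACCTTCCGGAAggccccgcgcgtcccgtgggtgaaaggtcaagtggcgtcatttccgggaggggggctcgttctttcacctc
A match is a description of the letters, not proof of a site.

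Each deposited peak carries the highest signal of its track within the peak. All of these values were whole multiples of 1 step per list (tolerance 0.02 of a step), 0.000361 in CKO and 0.000684 in WT, so heights are given in steps and as ranks within a list. How the tracks were scaled is not given in the sources used here, and no change between WT and CKO was read from them. The members had a median height of 12 steps in CKO (0.00433; range 4 to 96 steps), against 9 steps (0.00325) in the 2354 CKO peaks that overlapped WT but lay away from coding starts. Of the members, 13.8% were in the top 10 percent of CKO peaks, against 4.97% of those distal peaks. In the WT list the same regions ranked high: the WT peak of the median member was at percentile 97.9 of all WT peaks, 84.0% were in the top 10 percent and 37.0% in the top 1 percent. The 8614 WT promoter peaks with no CKO overlap had a median percentile of 66.3, with 24.9% in the top 10 percent and 1.93% in the top 1 percent. Across the 3606 members, heights in CKO and WT correlated at a Spearman rho of 0.624, a description of points that share their genomic region and their 2 tracks.

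**Figure D1:**
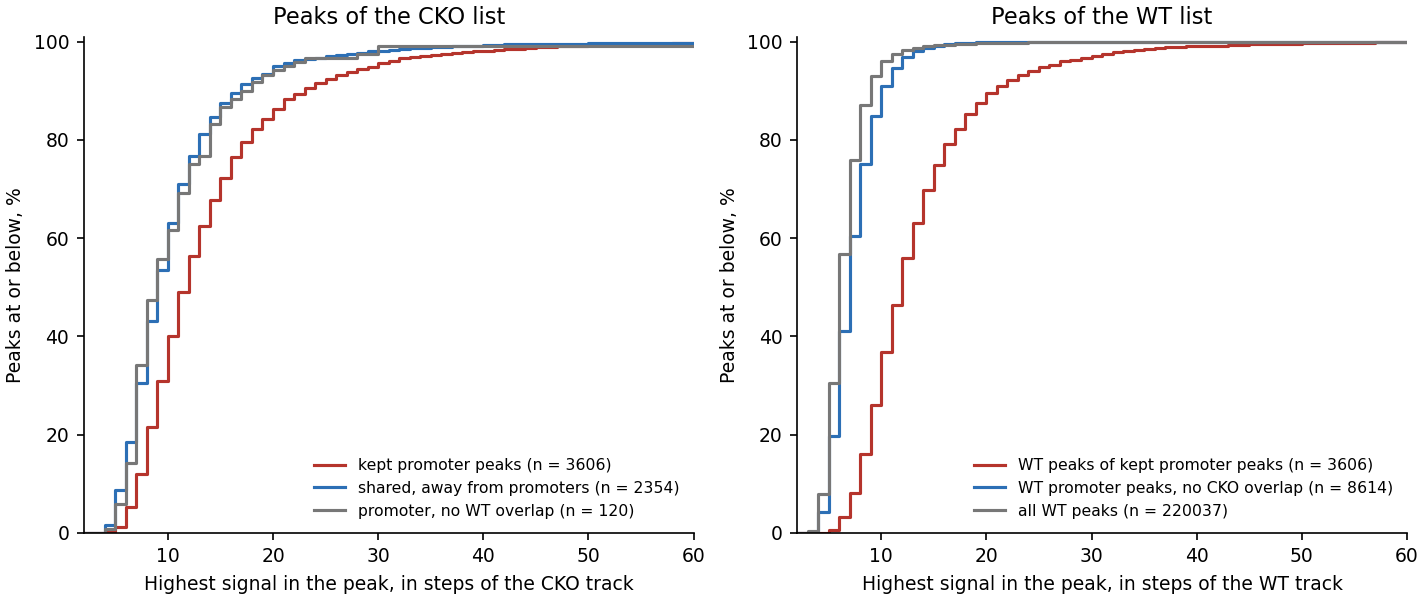
Cumulative share of peaks (%) at or below each height, in steps of the CKO track (left) and of the WT track (right), with 1 line per set of peaks and the axes drawn to 60 steps. Up to 40 steps the line of the kept promoter peaks lies to the right of the others in both lists, with medians of 12 steps in CKO against 9 for shared distal peaks, and 12 steps in WT against 7 for WT-only promoter peaks.

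The 10 highest members were named by rule. Trmt10a, which encodes a tRNA methyltransferase, and Psme3, which encodes the nuclear proteasome activator PA28-gamma, tied at 96 steps and rank 1 of the CKO list, with ranks 14 and 9 in WT. Brat1, a partner of the DNA-damage kinase ATM, followed at 75 steps (rank 6; WT rank 36). Hspa9, the mitochondrial HSP70, reached 66 steps (rank 8; WT rank 24), and Ppp1r15b, a phosphatase subunit that reverses eIF2-alpha phosphorylation, 65 steps (rank 10; WT rank 9). The rRNA-processing gene Ftsj3 stood at 63 steps and Ran, the GTPase of nuclear transport, at 62. Arv1, of endoplasmic reticulum lipid handling, stood at 61 steps, and the co-chaperone gene Tsacc and the fatty acid transporter Slc27a1 at 60 steps each. All 10 were also among the first 39 ranks of the WT list. Myc itself had a member peak of 9 steps (CKO rank 3771), Kat2a one of 15 steps (rank 1355), and Hsf1 had none.

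The members sat on their starts. The peak covered the start of the nearest coding gene in 88.5%, and the point of highest signal was a median of 219 bp from it (quartiles 133 and 447 bp). That point lay downstream of the start in 67.9% and upstream in 31.9%, with 34.9% of all members between 51 and 250 bp downstream. Width had a median of 1643 bp, and 60.8% of the members were wholly covered by WT peaks, whose median width was 3035 bp. In 618 members 2 coding starts lay within the limit, and in 18 there were 3. The nearest genes were 3593 in number, 13 of them with 2 member peaks, which was 16.4% of the 21879 coding genes. A further 647 coding genes lay within the limit without being nearest, 8724 (39.9%) had a WT promoter peak only, and 8786 had none. At the limit itself, Zfp46 (996 bp, 11 steps) and Sphk1 (985 bp, 6 steps) were the last members inside, and U2af2 (1010 bp, 36 steps) and Ccna2 (1016 bp, 12 steps) the first left out.

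The share of coding genes with a start at a member peak differed between chromosomes. It was 42.6% on chromosome 15, 32.8% on chromosome 11, 32.7% on chromosome 8 and 29.5% on chromosome 3, and it was 9.99% on chromosome 7, 7.90% on chromosome 14 and 5.97% on chromosome X. The WT list moved the same way: 96.6% of the coding genes of chromosome 15 had a WT promoter peak, against 34.1% on chromosome 7 and 46.1% on chromosome X. Among genes with a WT promoter peak, 44.1% were kept on chromosome 15 and 12.9% on chromosome X. Of the CKO promoter peaks, 120 had no WT overlap and were therefore no members, among them the third-ranked CKO peak at Cbx5 on chromosome 15 (91 steps), whose nearest WT peak was 8335 bp away.

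The canonical E-box was found more often at members than at other expressed promoters. RefSeq promoter windows of 300 bases (250 before to 50 after the start) were matched for 2925 of the 3593 genes (81.4%), and CACGTG, which reads the same on both strands, was present in 431 of them (14.7%, Wilson interval 13.5% to 16.1%). Among genes expressed enough to be tested below, the share was 15.0% of 2805 at members (13.7% to 16.3%), 8.49% of 3909 with a WT-only promoter peak (7.66% to 9.41%) and 10.5% of all 8925. It was 7.99% of all coding promoters. The members were put into 4 height classes, of 4 to 9, 10 to 12, 13 to 16 and 17 to 96 CKO steps. From the lowest to the highest class the share went from 9.80% (8.01% to 11.9%) through 14.3% and 15.6% to 20.6%, and the intervals of the lowest and the highest class did not overlap. A hexamer of the same bases in another order, GTGCAC, was present in 5.92% of tested members, 5.91% of tested WT-only genes and 5.77% of all tested genes. Unlike CACGTG it holds no CpG (C followed by G), so it does not control for the CpG content of promoters, whose part was not tested.

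**Figure D2:**
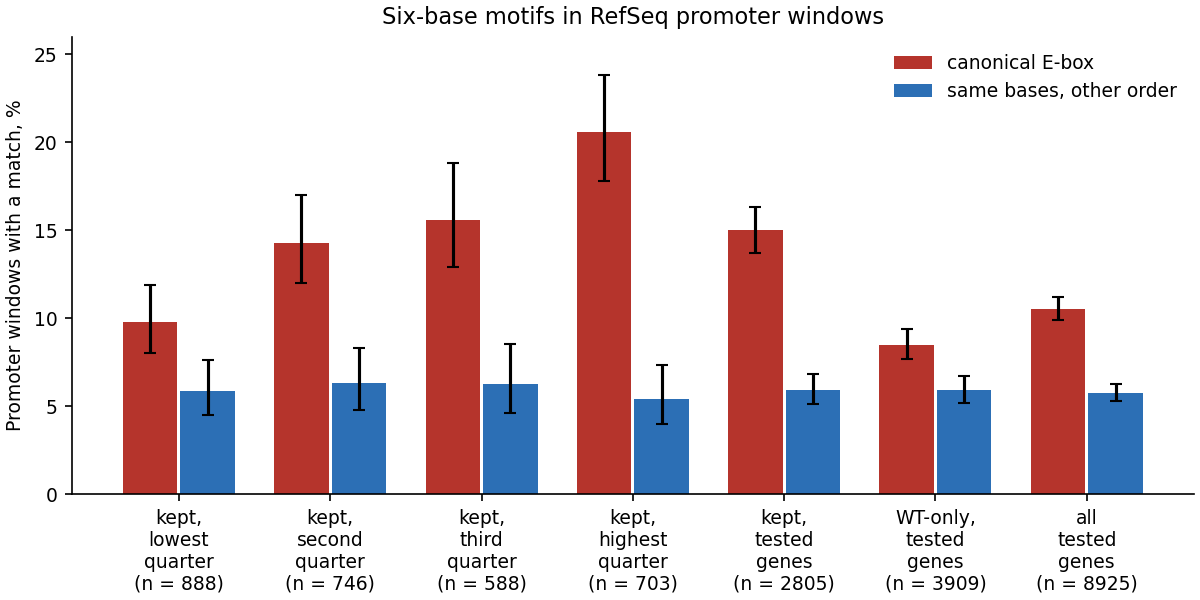
Share of RefSeq promoter windows (%) with CACGTG (red) or GTGCAC (blue) in the 4 height classes of members, all tested members, tested WT-only genes and all tested genes; bars show shares and whiskers 95% Wilson intervals. The red bars go from 9.80% in the lowest to 20.6% in the highest height class, and the blue bars stay between 5.41% and 6.30%. GTGCAC holds no CpG, unlike CACGTG.

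Other motifs were searched on both strands of the same windows. CACGCG, a noncanonical E-box, was present in 24.6% of tested members, 16.1% of tested WT-only genes and 18.7% of all tested genes. CAGCTG, an E-box of other factors, was present in 12.9%, 14.4% and 13.9%. A triple heat-shock element was present in 16 of the 2925 member windows (0.547%, interval 0.337% to 0.887%), against 0.370% of all tested windows, and these intervals overlap. GC content, which moves with CpG-containing motifs, had a median of 62.7% at members, 61.0% at tested WT-only genes and 61.3% over all tested windows, and its part in the shares was not tested. Where the 100 bases around the point of highest signal fell inside the window, CACGTG was present in 26 of 427 members (6.09%, interval 4.19% to 8.77%) and in 9 of 546 WT-only peaks (1.65%, interval 0.870% to 3.10%), and GTGCAC in 1.64% and 2.56%. Where a member window held the motif, its nearest copy was a median of 91.5 bp from that point for CACGTG (128 windows) and 80 bp for GTGCAC (42 windows), and it lay within 50 bp in 29.7% and 26.2% of them.

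Genes at members were expressed genes. In siControl LacZ cells their median level was 15.4 CPM per kb of gene length (counts scaled to library size, then per kilobase; library medians 15.0 to 15.6, lower and upper quartile over genes 5.64 and 39.3). The median was 1.02 CPM per kb for genes with a WT-only promoter peak and 0.392 for all coding genes. Only 34 of the 3593 had no count in any siControl LacZ library, against 2480 of the 8724 WT-only genes. The level went up with height, from 13.4 CPM per kb in the lowest height class through 14.1 and 16.3 to 20.3 in the highest. Medians in the other 3 groups were 16.2 (siHsf1 LacZ), 15.3 (siControl GCN5) and 15.5 CPM per kb (siHsf1 GCN5). Read the other way, a member peak was present at 12.2% of tested coding genes in the lowest of 10 equal level classes and at 52.5% in the highest, while WT-only peaks went from 45.0% to 31.5%.

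**Figure D3:**
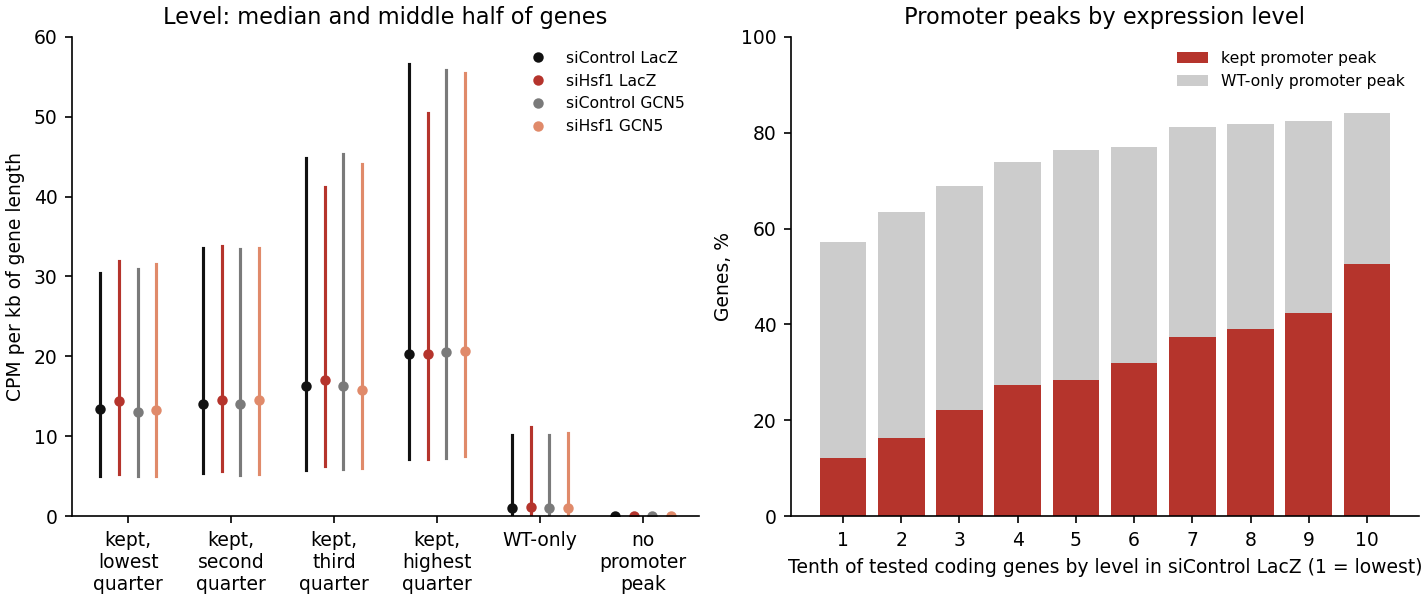
Left, level in CPM per kb of gene length (dot, median over genes; line, lower to upper quartile) for members by height class, WT-only genes and genes with no promoter peak, in the 4 RNA groups. Right, share of tested coding genes (%) with a kept or a WT-only promoter peak in each of 10 equal classes by level in siControl LacZ. Members went from 12.2% in the lowest class to 52.5% in the highest.

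The RNA libraries held 3.69 to 8.16 M gene counts, with the GCN5 line below the LacZ line in every library. Libraries were scaled by ERCC spike-in RNA (the subgroup B transcripts, equal in both mixes; 7460 to 29584 counts per library), and results with TMM scaling, which assumes that most genes do not change, stand beside. With ERCC scaling the spread between libraries was wide (biological coefficient of variation 0.274, against 0.0891 with TMM), and the subgroup B share of the counts ranged from 0.142% to 0.239% under siControl and from 0.177% to 0.356% under siHsf1 in the LacZ line. The median of all 12187 tested genes was -0.35 on the log2 scale for siHsf1 against siControl in the LacZ line with ERCC and -0.01 with TMM, so changes are read against that shift. Fibroblast markers were present (8 of 10 at 1 CPM or more, 1 at 0), and their summed level was 6002 to 6900 CPM in siControl LacZ, 9175 to 10285 in siHsf1 LacZ and 7715 to 8307 in the GCN5 line. The haematopoietic list (6 of 10 at 0) was at 12 to 14.8 CPM in siHsf1 LacZ, against 6.57 to 8.61 in siControl LacZ and 4.55 to 6.50 in the GCN5 line, which do not overlap. The endothelial list was at 3.04 CPM or less (4 at 0) and the epithelial list at 62.3 CPM or less (2 at 0). The neural list, with 2 at 0, was at 410 to 452 CPM in siHsf1 LacZ and at 481 to 513 CPM elsewhere. The part of the marker differences in the results below was not tested, and in bulk RNA fewer cells of a type and less RNA per cell cannot be told apart.

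The knockdown was checked on Hsf1, the activator of chaperone genes. It was at 208, 121 and 163 ERCC-scaled CPM in the 3 siControl LacZ libraries and at 75.3, 37.0 and 45.1 in the siHsf1 LacZ libraries, which do not overlap (log2 fold change -1.65 ± 0.33 SE, edgeR quasi-likelihood adjusted p = 1.2e-04). In the GCN5 line the values were 158, 92.4 and 130 under siControl and 68.0, 73.7 and 58.3 under siHsf1. These do not overlap either, but the adjusted p of edgeR was 1 with ERCC scaling (-0.93) and 9.9e-07 with TMM (-0.88).

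After Hsf1 knockdown in the LacZ line, more genes with a kept c-MYC promoter peak fell than rose under both scalings. Of the 3593 genes, 3428 passed the filter on low counts. With ERCC scaling 320 were lower (9.33%, background 6.03% of all tested genes) and 16 were higher (0.467%, background 0.993%) by edgeR's quasi-likelihood test at an adjusted p under 0.05, and the median was -0.40 against -0.35 for all tested genes. With TMM scaling 1094 were lower (31.9%, background 22% lower) and 609 were higher (17.8%, background 18.8% higher), with a median of -0.06 against -0.01. Genes with a WT-only promoter peak gave 3.96% lower and 0.995% higher with ERCC, and 17.8% lower and 22.0% higher with TMM. The 336 calls with ERCC depended on every LacZ library: they were 63, 594 and 140 without siControl LacZ replicate 1, 2 or 3, and 1218, 94 and 43 without siHsf1 LacZ replicate 1, 2 or 3, whereas the 1703 calls with TMM stayed between 1500 and 1622. Without siHsf1 LacZ replicate 3, 1.02% of members were lower with ERCC, against 0.798% of all tested genes. Without siHsf1 LacZ replicate 1 these shares were 35.2% and 27.2%.

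The response followed peak height. With ERCC scaling the share of lower genes went from 5.46% in the lowest height class through 6.56% and 10.8% to 15.9% in the highest, and the median fold change from -0.33 through -0.39 and -0.41 to -0.52. With TMM it went from 24.0% to 43.7% lower, with medians of 0.01 and -0.18. Level moved with both: among tested coding genes in the highest of the 10 level classes, the median was -0.62 for genes at members and -0.47 for the others (TMM -0.29 and -0.14). In the fifth class it was -0.34 and -0.31, and in the lowest -0.20 and -0.08. Members with CACGTG in the window (420 tested) had a median of -0.38 and 11.4% lower, and those without (2385) a median of -0.40 and 8.60% lower. With TMM these were 32.9% and 31.5% lower.

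**Figure D4:**
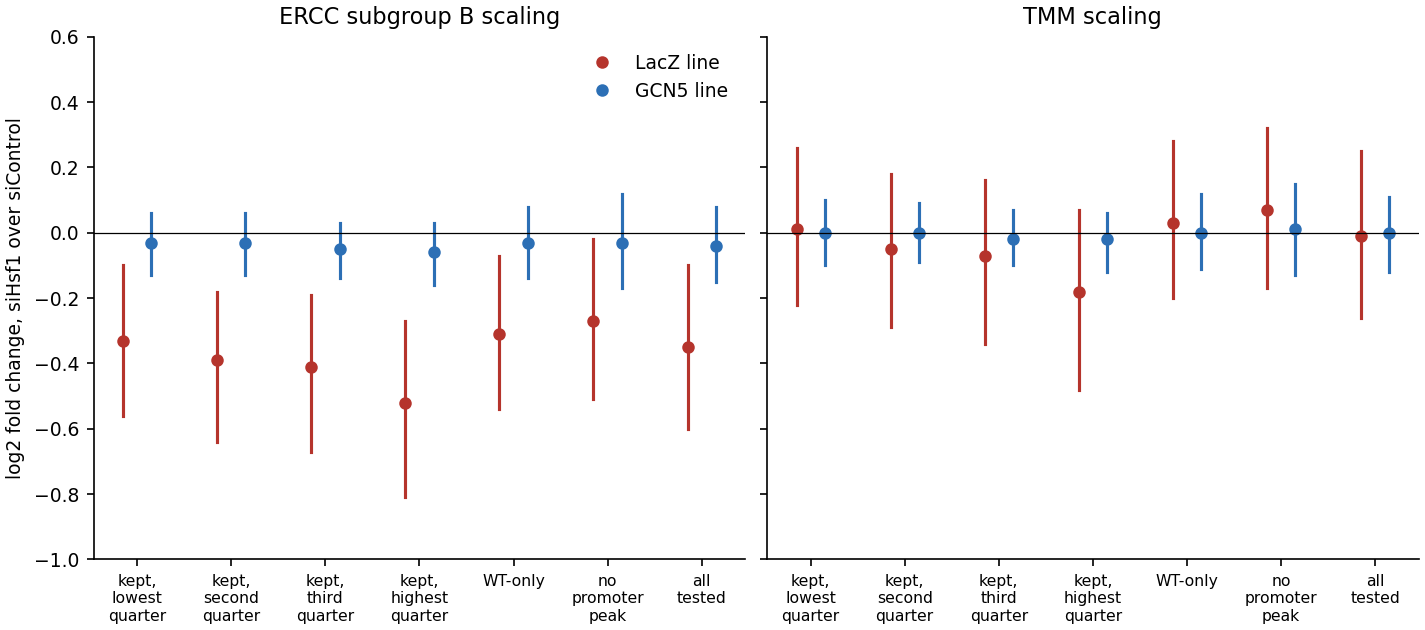
log2 fold change of siHsf1 over siControl (dot, median over genes; line, lower to upper quartile) with ERCC subgroup B scaling (left) and TMM scaling (right), in the LacZ line (red) and the GCN5 line (blue), for members by height class, WT-only genes, genes with no promoter peak and all tested genes. In the LacZ line medians go from -0.33 to -0.52 over the height classes with ERCC and from 0.01 to -0.18 with TMM, and in the GCN5 line they lie near 0.

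Genes for cytosolic ribosomal proteins were frequent among members, and most of those at members fell in the LacZ line. Of 76 genes for cytosolic ribosomal proteins 51 were at members (67.1%, against 31.0% of all tested coding genes), and 43 of these were lower with ERCC and 49 with TMM, with a median of -1.03 (TMM -0.72). The 31.0% is not matched for level, here or in the lists below. In the highest of the 10 level classes 52.5% of tested coding genes were at members. Rpl32, of the large subunit (peak of 43 steps), was at 890, 596 and 633 CPM in siControl LacZ against 426, 245 and 328 after siHsf1. The 2 groups did not overlap, and the fold change was -1.08 ± 0.32 (edgeR adjusted p = 0.019). Rplp2, a protein of the large subunit's stalk (40 steps), gave -1.06 (adjusted p = 0.023). By contrast 16 of 77 genes for mitochondrial ribosomal proteins were at members (20.8%). In these lists a gene at a member is the nearest gene of a member peak. A further 10 mitochondrial and 5 cytosolic ribosomal protein genes lay within the limit of a member peak without being nearest. Of the 16 mitochondrial genes at members, 1 was lower with ERCC and 9 with TMM, with a median of -0.62 (TMM -0.29). Over all tested genes 6.03% were lower with ERCC and 22% with TMM, which is the background for the lists below as well. Mrpl54, Mrps28 and Mrpl23 had values of -0.60, -0.83 and -0.44, none past the ERCC threshold.

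Nucleolar genes, which make ribosomes, showed the lowest median of the lists. Of 70, 46 were at members (65.7%), and 35 were lower with ERCC and 44 with TMM (median -1.21, TMM -0.85). Ncl, the nucleolar RNA-binding protein nucleolin (52 steps, no CACGTG in the stretch above), was at 2488, 1581 and 1898 CPM in siControl LacZ against 939, 477 and 697 after siHsf1, without overlap (-1.50 ± 0.32, edgeR adjusted p = 4.2e-04). Dkc1, the pseudouridine synthase of box H/ACA particles (20 steps, chromosome X), went from 230, 142 and 176 to 82.8, 38 and 60.9 CPM (-1.59 ± 0.33, adjusted p = 2e-04). Ftsj3 (63 steps) and the helicase gene Ddx21 (41 steps) gave -1.17 (adjusted p = 0.01) and -1.28 (adjusted p = 0.0048). The calls of Ncl and Dkc1 held when any 1 LacZ library was left out. Those of Rpl32, Rplp2, Ftsj3 and Ddx21 with ERCC scaling were lost without siControl LacZ replicate 1 or siHsf1 LacZ replicate 3 (adjusted p up to 0.18). Rpl32, Rplp2 and Ftsj3 also lost them without siHsf1 LacZ replicate 2, and Rpl32 and Rplp2 without siControl LacZ replicate 3. By TMM all 6 were lower.

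Translation factors, tRNA charging and nucleotide synthesis followed in smaller steps. Of 44 translation factor genes 34 were at members (77.3%), with 11 lower by ERCC, 30 lower and 1 higher by TMM, and a median of -0.76 (TMM -0.43). Eif3b, a scaffold of initiation factor eIF3 (47 steps), fell by 1.16 on the log2 scale (adjusted p = 0.011), lost without siControl LacZ replicate 1 or siHsf1 LacZ replicate 2 or 3 (adjusted p up to 0.14). Pabpc1, the poly(A)-binding protein (58 steps), had -0.87 (adjusted p = 0.066; TMM -0.56, adjusted p = 7e-09). Eif5a, the hypusinated elongation factor, varied between libraries of 1 group, with 169, 9.42 and 11.4 CPM in siHsf1 LacZ, and Vars, the valyl-tRNA synthetase, with 32.6, 71.2 and 19.0 CPM in siControl LacZ, so 1 library set each fold change. Of 20 cytosolic aminoacyl-tRNA synthetase genes 11 were at members (55.0%), with 1 lower by ERCC and 8 by TMM (median -0.74, TMM -0.45). Over all tested genes 6.03% were lower by ERCC and 22% by TMM. Iars, which charges isoleucine tRNA, was at 546, 287 and 411 CPM in siControl LacZ against 309, 157 and 215 after siHsf1, which overlap at 287 and 309 (-0.87 ± 0.32, edgeR adjusted p = 0.072; TMM -0.52, adjusted p = 1.1e-07). Of 32 nucleotide synthesis genes 22 were at members (68.8%), with 14 lower by ERCC and 22 by TMM (median -1.01, TMM -0.70).

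Among the nucleotide genes, Nme1, a nucleoside diphosphate kinase (52 steps), was at 411, 273 and 285 CPM in siControl LacZ against 195, 108 and 146 after siHsf1, without overlap (-1.11 ± 0.32, edgeR adjusted p = 0.017). Ppat, the first committed enzyme of purine synthesis (47 steps), gave -1.15 (adjusted p = 0.013). Both calls were lost with ERCC scaling without siControl LacZ replicate 1 or siHsf1 LacZ replicate 2 or 3 (adjusted p of both up to 0.16), Nme1 also without siControl LacZ replicate 3. Nme2, the neighbour of Nme1 with a peak of 43 steps, had -0.62 (adjusted p = 0.22; TMM -0.28, adjusted p = 0.007). Nme1 and Nme2 are near-identical neighbours, and ribosomal protein genes have many processed copies, so the split of reads among such copies is uncertain.

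Chaperone genes were at members too. Of 38 heat-shock and co-chaperone genes 21 were at members (55.3%) and 20 were tested, 10 lower by ERCC and 18 by TMM in the LacZ line (median -0.89, TMM -0.54). Hspe1 was at 327, 220 and 225 CPM in siControl LacZ against 131, 74.3 and 109 after siHsf1, without overlap (-1.29 ± 0.32, edgeR adjusted p = 0.0045). Hsph1, the HSP110 exchange factor (32 steps), gave -1.21 (adjusted p = 0.008). These 2 ERCC calls were lost without siControl LacZ replicate 1 or siHsf1 LacZ replicate 3 (adjusted p up to 0.12), Hsph1 also without siHsf1 LacZ replicate 2. Fkbp5, a co-chaperone of HSP90, fell by 3.20 (adjusted p = 4e-09) from 9.33, 7.85 and 13.0 CPM to 1.26, 1.57 and 0.345. Hspa9 had -0.64 (adjusted p = 0.21; TMM -0.29, adjusted p = 1.4e-04). Of 14 subunits of the chaperonin TRiC and of prefoldin 7 were at members, with 5 lower by ERCC and 6 by TMM (median -1.04, TMM -0.70). Among them Cct5, Cct8 and Cct6a gave -1.09, -1.0 and -1.13 (adjusted p = 0.017, 0.032 and 0.013), all lost without siControl LacZ replicate 1 or siHsf1 LacZ replicate 2 or 3 (adjusted p up to 0.23), and Cct5 and Cct8 also without siControl LacZ replicate 3.

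**Figure D5:**
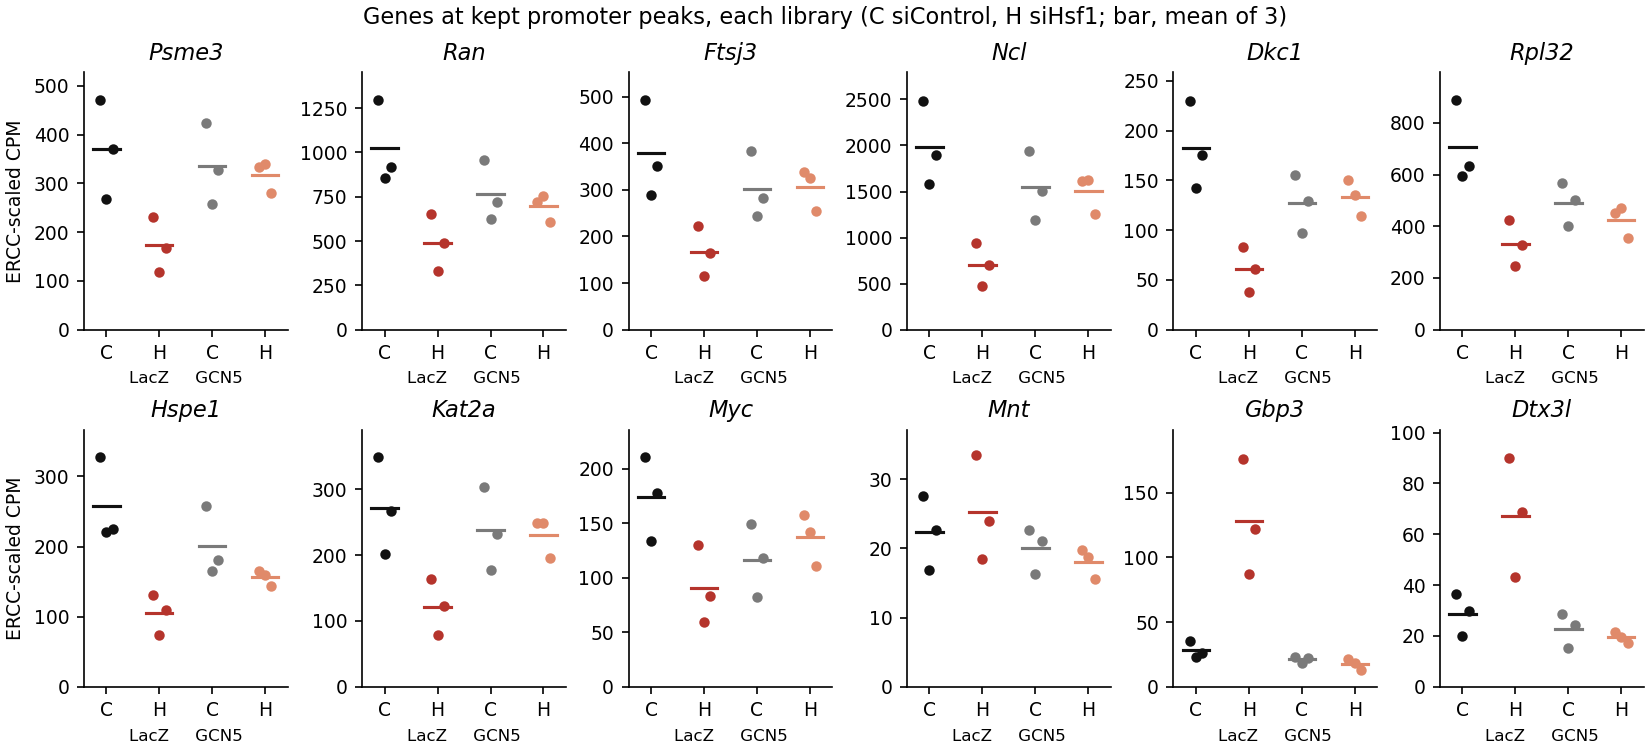
ERCC-scaled CPM of 12 genes at kept promoter peaks in every library (dots) with the mean of 3 (bar), for siControl (C) and siHsf1 (H) in the LacZ and the GCN5 line; each panel has its own axis from 0. Ncl, Dkc1 and Rpl32 are lower in every siHsf1 LacZ library than in any siControl LacZ library, and Gbp3 and Dtx3l are higher.

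The MYC network and the acetyltransferase complexes contributed single genes. Of 20 network genes 9 were at members, with 2 lower by ERCC (Myc and Mxi1, a MAX-binding repressor) and 4 lower and 1 higher by TMM (median -0.41, TMM -0.04). Myc was at 211, 134 and 178 CPM in siControl LacZ against 130, 59.6 and 83.1 after siHsf1, without overlap (-0.94 ± 0.32, edgeR adjusted p = 0.049; TMM -0.63, adjusted p = 3.8e-07). The ERCC call of Myc was lost without siControl LacZ replicate 1 or 3 or siHsf1 LacZ replicate 2 or 3 (adjusted p up to 0.28). Mnt, a MAX-binding repressor with a peak of 58 steps, was at 27.5, 16.9 and 22.6 against 33.5, 18.4 and 23.9 CPM, which overlap (0.18 ± 0.33, adjusted p = 0.77), and it was higher by TMM (0.52, adjusted p = 3.3e-04). Mxd3, another repressor, and Mlxip, the glucose-responsive MondoA, had -0.75 and -0.24, neither past the ERCC threshold. Of 26 SAGA and ATAC subunit genes 15 were at members (57.7%), with 1 lower by ERCC and 4 by TMM (median -0.34, TMM 0.00), shares near the 6.03% and 22% of all tested genes. That 1 was Kat2a, given as the gene of GCN5 itself, at 348, 202 and 266 against 163, 78.4 and 123 CPM (-1.17 ± 0.32, adjusted p = 0.011), lost without siControl LacZ replicate 1 or 3 or siHsf1 LacZ replicate 2 or 3 (adjusted p up to 0.13). Zzz3 of ATAC, Taf12 and Atxn7l3 of SAGA had -0.35, -0.57 and -0.25. In siControl GCN5 Kat2a was at 303, 178 and 232 CPM, so the count of the mouse gene did not show the transgene, whose species the labels do not give.

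Cell-division and housekeeping lists differed in how many of their genes were at members. Of 36 mitosis genes 11 were (30.6%, near the 31.0% of all tested coding genes), with 4 lower by ERCC and 10 by TMM (median -0.91, TMM -0.58; all tested genes, 6.03% and 22% lower). Aurka, a spindle kinase, gave -1.21 (edgeR adjusted p = 0.0084) and Ube2c, an anaphase-promoting E2 enzyme, -0.97 (adjusted p = 0.042), while Kif20a, a cytokinesis kinesin, had -0.91 (adjusted p = 0.06). Of 37 DNA replication genes 12 were at members (32.4%, also near 31.0%), 1 lower by ERCC and 5 by TMM, with -1.04 for the polymerase subunit Pold2 (adjusted p = 0.027) and -0.46 and -0.38 for Mcm7 and Orc6 of the origin complexes, which did not pass. The ERCC calls of Aurka, Ube2c and Pold2 were lost without siControl LacZ replicate 1 or siHsf1 LacZ replicate 2 or 3 (adjusted p up to 0.26), and those of Ube2c and Pold2 also without siControl LacZ replicate 3. Of 50 splicing factor genes 32 were at members (64.0%), and by edgeR 0 were lower by ERCC and 21 by TMM (median -0.62, TMM -0.30). Srsf2 and Ptbp1 had -0.62 each, and Srsf1 was at 13.1 to 20.4 CPM in siControl LacZ but 80.0 to 91.8 in siControl GCN5. Of 31 proteasome genes 6 were at members (19.4%), 0 lower by ERCC and 6 by TMM, with -0.74, -0.75 and -0.78 for Psmd12, Psmd7 and Psmd3. A further 3 proteasome genes and 9 histone genes lay within the limit of a member peak without being nearest. Of 37 histone genes 12 were at members and 6 were tested, with 1 lower by ERCC (H2afz), 3 lower and 2 higher by TMM, and H3f3b had -0.10 with ERCC and 0.21 with TMM (adjusted p = 0.02).

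The signalling lists followed. Of 28 type I interferon genes, 27 of them tested, 4 were at members (14.3%). Over all tested coding genes that share was 31.0%, and over all coding genes 16.4%. By edgeR 0 of the 4 were called by ERCC and 3 were higher by TMM (median 0.79, TMM 1.13). Over all tested genes 0.993% were higher by ERCC and 18.8% by TMM. Ifi35, Bst2 and Ifit2, all induced by interferon, had 0.82, 0.92 and 0.75 with ERCC and passed with TMM at 1.18, 1.26 and 1.07. Of 26 p53 target genes 3 were at members: Gadd45a (0.44, higher by TMM at 0.78, adjusted p = 5.2e-05), Rrm2b (-0.45) and Bbc3 (-0.45). A further 3 lay within the limit without being nearest. Of 22 immediate early genes 11 were at members, 1 higher by ERCC and 5 by TMM, and Fosl1, Jund and Egr1, the 3 with the highest peaks, had -0.79, -0.27 and -0.23 with no call. Over the 18 lists, the number of lower members with ERCC scaling shifted with the left-out library (for the ribosomal proteins from 3 without siControl LacZ replicate 1 to 49 without siHsf1 LacZ replicate 1, for the nucleolar list from 8 without siHsf1 LacZ replicate 3 to 44 without siHsf1 LacZ replicate 1). It went from 2 to 18 for the chaperones, 0 to 29 for the translation factors and 0 to 25 for the splicing factors (each lowest without siControl LacZ replicate 1 and highest without siHsf1 LacZ replicate 1). It went from 2 without siHsf1 LacZ replicate 3 to 22 without siHsf1 LacZ replicate 1 for nucleotide synthesis, and from 0 without siControl LacZ replicate 1 to 10 without siControl LacZ replicate 2 for mitosis. The other 11 lists had 0 as their lowest number and at most 9 as their highest. With TMM it stayed at 48 to 49 for the ribosomal proteins, 43 to 45 for the nucleolar list and 17 to 18 for the chaperones.

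The 8 largest rises at members, among called genes whose LacZ groups did not overlap, included immune and signalling genes. Gbp3, an interferon-induced GTPase (10 steps), was at 35.3, 23.4 and 26.5 CPM in siControl LacZ against 176, 87.1 and 122 after siHsf1 (2.18 ± 0.33, edgeR adjusted p = 3.8e-08). Gbp3 has close paralogs, so the split of reads among them is uncertain. Rnf213, a large ubiquitin ligase (20 steps), went from 815, 294 and 639 to 2149, 1100 and 1519 CPM (1.45 ± 0.32, adjusted p = 7.6e-04). Dusp1, the phosphatase that switches off MAP kinases, and Dhrs3, a retinaldehyde reductase, rose by 1.32 and 1.35 (adjusted p = 0.0033 and 0.0025). Dpp7, a dipeptidyl peptidase, Dtx3l, a ubiquitin ligase of DNA damage and interferon signalling (4 steps, among the lowest members), and Fam20a, a secretory pathway pseudokinase, rose by 1.25, 1.23 and 1.17 (adjusted p = 0.0064, 0.007 and 0.011). Dhrs3 and Dpp7 lost their ERCC calls without siControl LacZ replicate 3, and Dtx3l and Fam20a without siHsf1 LacZ replicate 3 (adjusted p up to 0.087). Rad9a, of the 9-1-1 checkpoint clamp, rose by 3.00 (adjusted p = 1.4e-06), from only 0.595 to 1.55 CPM in siControl LacZ to 16.7, 3.92 and 4.71. The calls of Rad9a, Gbp3, Rnf213 and Dusp1 held when any 1 LacZ library was left out, and all 8 genes were higher with TMM.

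The 8 largest falls by the same rule began with Fkbp5 and went on with genes of several pathways. Ube2cbp, an E2-binding protein (19 steps), went from 11.5, 6.42 and 7.34 to 2.16, 1.65 and 1.84 CPM (-2.16 ± 0.43, edgeR adjusted p = 1.3e-04). Timm8a1, of mitochondrial import (28 steps, chromosome X), went from 82.8, 55.6 and 60.8 to 27.2, 13.1 and 16.2 CPM (-1.83 ± 0.33, adjusted p = 1e-05). None of these groups overlapped, which the naming rule required. Lrp8, a reelin receptor (28 steps), and Dyrk3, a kinase of condensate dissolution, fell by 1.73 each, Nedd4, a ubiquitin ligase, by 1.61, the axonal adhesion gene Cntnap1 by 1.60 and Dkc1 by 1.59 (adjusted p at most 4.8e-04). All 8 were also lower with TMM, with adjusted p from 2.3e-13 to 0.026, and all 8 calls held when any 1 LacZ library was left out.

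Of the genes of the 10 highest members, 4 fell with ERCC scaling. Over all tested genes 6.03% were lower with ERCC and 22% with TMM. Trmt10a was at 34.9, 18.9 and 24.3 CPM in siControl LacZ against 15.3, 8.48 and 10.2 after siHsf1 (-1.20 ± 0.34, edgeR adjusted p = 0.012). Psme3 was at 471, 268 and 371 against 231, 119 and 168 (-1.10 ± 0.32, adjusted p = 0.018), and Ran at 1297, 856 and 918 against 653, 329 and 487 (-1.06 ± 0.32, adjusted p = 0.021). Neither these 3 nor Ftsj3 overlapped between the groups, and in TMM all 4 were lower. The share of all tested genes without such overlap is not given here. With ERCC scaling each of the 4 calls was lost without siControl LacZ replicate 1 or siHsf1 LacZ replicate 2 or 3 (adjusted p up to 0.18), and those of Psme3 and Ran also without siControl LacZ replicate 3. Hspa9 and Ppp1r15b (-0.50) passed with TMM only, as lower, and Slc27a1 (0.05) with TMM only, as higher (0.39, adjusted p = 8.4e-04). Brat1, Arv1 and Tsacc had -0.28, -0.37 and -0.28, with no call by either scaling.

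In the GCN5 line few genes at members were called after siHsf1. With ERCC scaling 4 were higher (0.117%, background 0.0328% of all tested genes) and 0 lower (background 0.00821%) by edgeR. These 4 were the only genes called higher among all 12187 tested, so that background holds no others. At an unadjusted p under 0.05 there were 23 members, and the median was -0.05 (all tested genes -0.04). DESeq2 with the same size factors called 0, and edgeR with TMM 4 higher (0.117%, background 0.0656%) and 6 lower (0.175%, background 0.0821%). The 4 with ERCC were Usp39, a spliceosome gene (3.34 ± 0.52, adjusted p = 1.3e-06), Slc25a1, the citrate carrier (2.52 ± 0.55, adjusted p = 0.019), Phtf1, a putative homeodomain gene (2.01 ± 0.44, adjusted p = 0.017), and Gabarap, of autophagosomes (1.56 ± 0.36, adjusted p = 0.05). Usp39 was at 0.622, 0.827 and 2.09 CPM under siControl and 18.3, 1.50 and 16.5 under siHsf1, and Gabarap at 11.2, 9.51 and 8.87 against 12.7, 66 and 8.79, so both groups overlap and 1 library sets the Gabarap value. None of the 4 passed with TMM (adjusted p = 0.31 to 0.55). The ERCC count was 1 without siControl GCN5 replicate 1, 2 without siControl GCN5 replicate 2 and 2 without siHsf1 GCN5 replicate 2.

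Of the 6 members lower in the GCN5 line with TMM, 5 were chaperone genes, named here after their values were seen. They were Hsph1 (-0.40, edgeR adjusted p = 0.0011), Dnajb1, the HSP40 that assists HSP70 (-0.50, adjusted p = 0.0091), Fkbp4, an HSP90 co-chaperone (-0.33, adjusted p = 0.011), Ahsa1, the activator of the HSP90 ATPase (-0.36, adjusted p = 0.02), and Hsp90aa1, the inducible cytosolic HSP90 (-0.27, adjusted p = 0.033). The other gene of the 6 was Dazap2 (-0.35, adjusted p = 0.011), and the 4 higher ones were Papd5 (0.40), Fgf7 (0.45), Phlda1 (0.49) and Thbd (0.46). In the LacZ line the 5 chaperone genes had -0.88, -0.47, -1.07, -0.87 and -0.97 with TMM. Nucleolar members had a GCN5-line median of -0.04 with ERCC and 0.00 with TMM, and ribosomal protein members -0.16 and -0.13. The 10 TMM calls in this line moved with the library set. A fit of the 6 GCN5 libraries alone, with TMM, called 117 members (54 higher, 63 lower; all tested genes 1.32% higher and 0.993% lower). In the fit of all 12 libraries they were 2, 2 and 1 without siControl GCN5 replicate 1, 2 or 3, and 5, 5 and 1 without siHsf1 GCN5 replicate 1, 2 or 3.

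The difference between the lines was tested as an interaction, the fold change in GCN5 minus that in LacZ. With ERCC scaling edgeR called 10 genes at members with a positive difference (0.292%, background 0.172%) and 2 with a negative one (0.0583%, background 0.222%), and the median was 0.36 against 0.32 for all tested genes. With TMM it called 729 positive (21.3%, background 12.5%) and 350 negative (10.2%, background 9.51%), with a median of 0.06 against 0.02. The positive share with TMM went from 14.4% in the lowest height class to 31.7% in the highest. By list, 42 of 46 nucleolar members, 44 of 51 ribosomal protein members, 21 of 22 nucleotide synthesis members, 12 of 20 chaperone members and 3 of 15 SAGA and ATAC members had a positive difference with TMM. Ncl had 1.17 with TMM (adjusted p = 7e-11) and 1.45 with ERCC (adjusted p = 0.14). The 12 ERCC calls became 103 without siHsf1 LacZ replicate 1, 20 without siControl LacZ replicate 2 and 6 without siControl GCN5 replicate 3. The GCN5 line differed from the LacZ line in depth as well, and the fall of Hsf1 given above was smaller there with ERCC scaling. Line, depth and size of the knockdown cannot be told apart.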

How the data were processed

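Per the submitters' processing notes, the tools were HISAT2, Bowtie2, SEACR and DESeq2 and the build GRCm38/mm10, with no versions or settings given there. The RNA-seq table holds raw counts per gene and ERCC transcript as deposited by the authors for 12 libraries, and the FPKM table was not used. The SEACR peak lists hold the authors' summed and highest signal per peak, with no replicate error. Gene starts and biotypes came from the count table.

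Counts were fitted with edgeR 4.0.16 (quasi-likelihood, R 4.3.3) over the 12 libraries as 4 groups, after filterByExpr (minimum count 10), with Benjamini-Hochberg adjustment over all 12187 tested genes and a threshold of 0.05. The floor of 3 counts was 0.368 to 0.812 CPM. Scaling used ERCC subgroup B, with TMM beside it, and ERCC CPM values are library values after that scaling. DESeq2 1.42.0 served as an alternative. Wilson intervals (95%) cover counting error only.

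Named genes were those of the 10 highest CKO peaks, the 8 largest called changes in each direction without overlap of libraries (mean log2 CPM of at least 2), up to 3 of each of 18 gene lists (688 genes) by CKO height, up to 4 called genes in each direction in the GCN5 line and the interaction, and Hsf1, Kat2a and Myc. Of these, 1 gene is not reported here. The members and the lists were chosen with earlier results of these data known. Promoter windows are RefSeq's (GRCm38.p6). No source used here says whether counting used strand, so values of overlapping genes are uncertain. The labels give no batch or date.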

Additional observations from a re-analysis of the deposited data

Results flagged for a closer look

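For 12 genes at members the siHsf1 response differed between the lines by the interaction test of edgeR with ERCC scaling (log2 fold change in GCN5 minus that in LacZ). In 6 of them the difference also passed with TMM. Gbp3 differed by -2.46 (adjusted p = 2e-04, TMM adjusted p = 1.3e-11) and was called in 12 of 12 fits that each left out 1 library. Nedd4 differed by 1.68 (adjusted p = 0.043, TMM 8.2e-11), Lrp8 by 1.75 (adjusted p = 0.037, TMM 1.1e-06) and C1qbp, a mitochondrial matrix protein, by 1.86 (adjusted p = 0.018, TMM 7.4e-09), called in 4, 3 and 6 of those 12 fits. 2610318N02Rik differed by 2.07 (adjusted p = 0.043, TMM 1.8e-04), called in 3 of 12, and Daxx, a histone chaperone, by 3.95 (adjusted p = 5.2e-04, TMM 0.024), called in 12 of 12 at only 1 to 35 counts per library.

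The other 6 did not pass with TMM, and each had a library at 5 counts or fewer. Rad9a differed by -2.88 (adjusted p = 0.007, TMM 0.078), Trim37, a ubiquitin ligase, by 2.23 (adjusted p = 0.0053, TMM 0.32) and Fkbp5 by 3.12 (adjusted p = 9e-04, TMM 0.17). Wdr46, of ribosome biogenesis, differed by 4.24 (adjusted p = 2.2e-04, TMM 0.14), Usp39 by 4.35 (adjusted p = 6.2e-06, TMM 0.077) and Slc25a1 by 5.41 (adjusted p = 1.5e-08, TMM 0.067). Slc25a1 varied inside groups, with 0.666, 7.37 and 5.84 ERCC-scaled CPM in siControl LacZ.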

How the results depend on the processing

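The number of members was 2163 when only CKO peaks above the median height counted, and 3283 to 3746 under the other peak settings. The LacZ count of 336 became 1703 with TMM, 1520 with DESeq2 and its own size factors, 223 without the low-count filter, 1297 with the replicate block, 1753 with TMM and the block, 25 with the 6 LacZ libraries alone and 43 to 1218 without 1 library. With TMM it was 1500 to 1622 without 1 library and 1531 in the LacZ libraries alone. In the 6 LacZ libraries alone with ERCC, 0.641% of members were lower, against 0.585% of all tested genes. With TMM these shares were 28.5% and 19.2%. The GCN5 count of 4 became 10 with TMM, 0 with DESeq2 on ERCC factors (13 at an unadjusted p under 0.05), 16 with its own factors, 14 with TMM and the block, 1 with the 6 GCN5 libraries alone and 1 to 3 without 1 library. With TMM it was 117 in the GCN5 libraries alone and 1 to 5 without 1 library. The interaction count of 12 became 1079 with TMM, 4 and 898 with DESeq2 on ERCC and own factors, 365 with the replicate block, 1147 with TMM and the block and 6 to 103 without 1 library (TMM 859 to 1164). The replicate block raised the LacZ count more with ERCC (336 to 1297) than with TMM (1703 to 1753). The cause of all these shifts was not tested. The median level was 15.2 to 15.5 CPM per kb without 1 library, and CACGTG was in 6.09% of 100-base windows at the point of highest signal (14.7% of full windows). H3f3b reversed in the LacZ line, from -0.10 to 0.21 with TMM, 0.23 with DESeq2's own factors and 0.21 with TMM and the block. Over the named genes, 1072 of the values under other settings kept their side of the threshold, 171 lost a call, 115 gained one and 3 reversed. A change of direction counted as reversed only where the main or the other fit made a call. Values that changed direction with no call in either fit, as for Eif5a in the LacZ line, are among the 1072.

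The fits of TMM without 1 library and of 1 line alone, and the levels without 1 library, were chosen after seeing the data. By their labels, samples share only a replicate number. Same-numbered samples correlated at -0.0616 to 0.0649 in their deviations, and not every sample correlated best with its own number. A correlation over genes cannot show a shift common to all genes of a library. The ERCC subgroup B share for replicates 1, 2 and 3 was 0.142%, 0.239%, 0.19% (siControl LacZ) and 0.177%, 0.356%, 0.248% (siHsf1 LacZ). It was 0.197%, 0.296%, 0.238% (siControl GCN5) and 0.229%, 0.232%, 0.286% (siHsf1 GCN5). Replicate 1 was lowest in each group. The main fit had no replicate term, and what set this order was not tested. Motifs over whole peaks were not run, as no genome was used here. Peaks carry no replicate error.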
